A study of Drosophila melanogaster with 2 samples.

Results

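Of the 7689 summits of Meics-GFP binding in fly embryos, 236 (3.07%, Wilson 95% interval 2.71 to 3.48) lay inside an annotated exon and more than 500 bp from every transcription start site (TSS). They were chosen by position alone. A summit counted when the annotation placed it in a 5′ untranslated region (UTR), a coding exon or a 3′ UTR of a protein-coding gene, or in an exon of a non-coding gene, and when no TSS of a coding or non-coding gene was within 500 bp. The 5′ UTRs held 46 of these summits, coding exons 26, 3′ UTRs 86 and exons of non-coding genes 78. They fell in 209 host genes. The hosts of all 78 were annotated as ncRNA, and none of the 236 summits was within 500 bp of a RefSeq TSS.

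The peaks come from ChIP-seq, in which chromatin bound by a protein is pulled down with an antibody and its DNA sequenced, on whole Drosophila melanogaster embryos of 0 to 24 hours with males and females pooled. The transgenic line, strain Meics-GFP, stably expresses a zinc-finger protein, Meics, with a C-terminal GFP. Its chromatin was pulled down with anti-GFP per the description, while the antibody field of the labels names Meics. There was 1 group, Meics-GFP embryos, with 2 biological replicates numbered 1 and 3, and no untagged or untreated group and no control library was analysed here. Whole embryos mix all tissues and a full day of development, so a summit cannot be placed in a cell type or a stage, and read depth is unknown. The authors thresholded their list with the irreproducible discovery rate (IDR), which rests on how alike peaks rank between replicates. A single peak of the list need not rank alike in both. Of its 7689 peaks, 89 had no overlapping region in the list of 30000 regions of at least 1 replicate. Intervals given here cover counting error only, and neighbouring peaks are not independent of each other.

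An exon is the part of a gene that stays in the spliced RNA. Coding exons carry the protein sequence, a 5′ UTR precedes it and holds the sequence through which the ribosome reaches the start codon, and a 3′ UTR follows it and carries sites for RNA-binding proteins, microRNAs and the cleavage and polyadenylation machinery. Long non-coding RNAs are spliced or unspliced transcripts without a protein product, and some are the precursors of microRNAs. Transcription factors are best known for binding at promoters, in introns and between genes, where regulatory DNA is not also under the constraint of a protein code.

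Base composition at strong summits varied within and between exon classes, and 2 summits of each class are shown so that it can be read, from the RefSeq copy of the assembly (plus strand, 30 bases, with the summit base in capitals). They are the 2 strongest of their class, except in coding exons, where they are the second and the third. The baz and Raf summits were in 5′ UTRs, Pde1c and CG9663 in coding exons, APC7 and by in 3′ UTRs, and lncRNA:Vinr and lncRNA:CR46035 in exons of non-coding genes.
baz, chrX:17178746-17178775: ttaatatatgcaacTtacttacgcgttatt
Raf, chrX:2296242-2296271: caagcccttcatggAgtaacgcatatcaac
Pde1c, chr2L:11816564-11816593: cgcagcgccatctgCcggctccgcagctgg
CG9663, chr2L:3301243-3301272: tggtgttgcggcttTcgtcactatgctggc
APC7, chrX:6599498-6599527: aaagtgaatgttttTtttttgttattaaga
by, chr3R:9528631-9528660: cttgggcatataaaCaaatatgaatcagtg
lncRNA:Vinr, chrX:12751317-12751346: aaattttgatatatGccaatcccttacatg
lncRNA:CR46035, chr3R:17704398-17704427: tgtttctgatcaagTcactcatcaaaagac
Of the 30 bases, 22 were A or T at baz and 16 at Raf, 7 at Pde1c and 13 at CG9663, 25 at APC7 and 20 at by, and 21 at lncRNA:Vinr and 19 at lncRNA:CR46035. Single summits of different classes thus came close to each other, and the means by class are given with the GC content further on.

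An 8-base word recurred close to summits in coding exons and 3′ UTRs. It was GTGACGAA or GTAACGAA on either strand, 2 spellings that differ in 1 base and were picked from these same data for their frequency at the strongest peaks. The lines below read 5′ to 3′ on the strand that carries the word, which is in capitals, so that the neighbouring bases can be compared. CG9663, mthl15, CG7675 and gce are coding-exon hosts, and fok, Rab35, corto and CG14204 are 3′ UTR hosts.
CG9663, chr2L:3301245-3301274, minus strand: gagccagcataGTGACGAAagccgcaacac
mthl15, chr2L:10237744-10237773, plus strand: atatttgaataGTAACGAAttcgcggcaca
CG7675, chr3R:18380194-18380223, minus strand: gtttcaccgagGTAACGAAcgcacctcacc
gce, chrX:15315850-15315879, plus strand: ctttcggcgtaGTGACGAAgcgccacgcgg
fok, chr2L:20082333-20082362, minus strand: gaaaaaatcaaGTAACGAAaacctgccccg
Rab35, chrX:20156117-20156146, minus strand: tgaataacgtaGTAACGAAgcgcactagaa
corto, chr3R:5081635-5081664, plus strand: aaatttgtcgaGTAACGAAagcactctagt
CG14204, chrX:19587028-19587057, plus strand: tcatctgcgtaGTGACGAAatgctatgttt

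Coding exons stood far below every other class in the density of summits. Density was measured against all bases that the same rule would put in a class. Coding exons away from TSSs covered 18.4 Mb and held 1.41 summits per Mb (exact Poisson 95% interval 0.923 to 2.07), against 55.4 per Mb in introns (53.4 to 57.4), which is 39.2-fold lower. The difference was 42.7-fold in the strongest 7689 regions of replicate 1 alone and 34.1-fold in those of replicate 3. In 3′ UTRs there were 14.5 summits per Mb (11.6 to 17.9), 3.82-fold below introns, with 3.97-fold in replicate 1 and 3.74-fold in replicate 3. In 5′ UTRs there were 44.1 per Mb (32.3 to 58.8), an interval that includes the intron value. Exons of non-coding genes held 73.1 per Mb (57.8 to 91.3), above introns and above intergenic sequence at 28.0 per Mb (26.3 to 29.7). This was close to the 71.2 per Mb (61.6 to 81.7) of the 500 bp around non-coding starts. Without genes that contain a microRNA hairpin, non-coding exons held 59.4 per Mb (45.0 to 76.9), an interval that includes the intron value. That split was made after the values were seen. For scale, coding promoters held 216 per Mb (208 to 223).

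**Figure D1:**
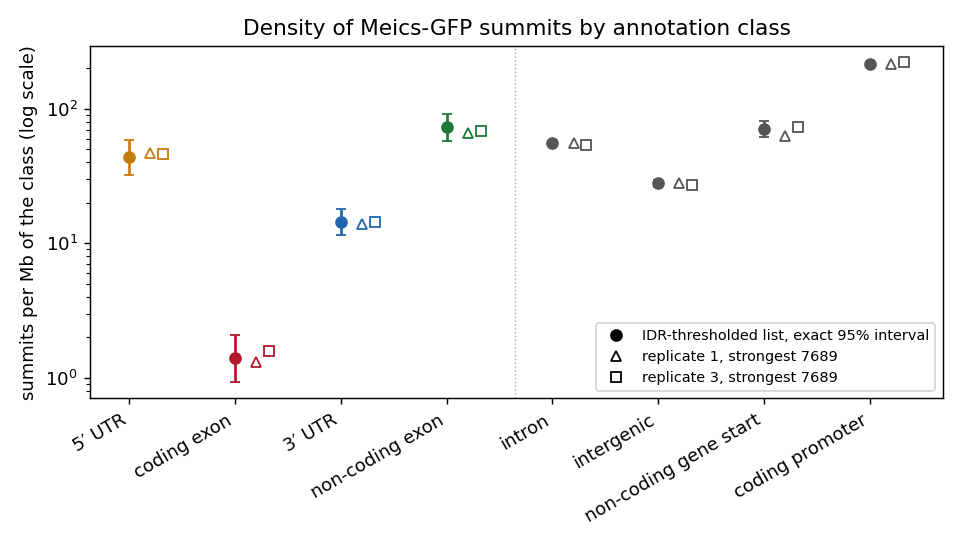
Summits per Mb of sequence in each annotation class, on a log axis; filled points are the IDR-thresholded list with exact Poisson 95% intervals, triangles and squares the strongest 7689 regions of replicates 1 and 3. Coding exons sit at 1.41 per Mb and 3′ UTRs at 14.5, below introns at 55.4, and exons of non-coding genes sit at 73.1.

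The counts of the replicates taken singly were close to each other in every exon class. Exonic summits numbered 226 in replicate 1 and 235 in replicate 3 (230.5 ± 6.36, SD, n = 2). In 5′ UTRs there were 49 and 48, in coding exons 24 and 29, in 3′ UTRs 83 and 85, and in exons of non-coding genes 70 and 73. The replicates therefore differed by less than the exon classes did.

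Exonic summits were recovered in both replicates about as often as other summits. A region among the strongest 7689 of each replicate overlapped 195 of the 236 exonic peaks (82.6%, Wilson 95% interval 77.3 to 86.9), against 83.5% (82.6 to 84.3) of the 7453 other peaks, a difference of -0.869 percentage points (Newcombe 95% interval -6.28 to 3.52). The share was 84.8% in 5′ UTRs, 88.5% in coding exons, 79.1% in 3′ UTRs and 83.3% in exons of non-coding genes. In the lists of 30000 regions, 235 of the 236 exonic peaks had an overlapping region in both replicates. The exception was in the 3′ UTR of pros, which encodes a homeodomain factor of neural differentiation, with a signal value of 135 in replicate 1 and no overlapping region in replicate 3. Across the other 235, the log10 signal values of the replicates had a Pearson r of 0.885 and the ranks a Spearman rho of 0.82. These describe peaks of 1 list that was selected on the same replicates. The replicate summits lay a median of 18 bp apart, 9.5 bp in coding exons and 28 bp in exons of non-coding genes, against 19 bp for the other peaks.

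**Figure D2:**
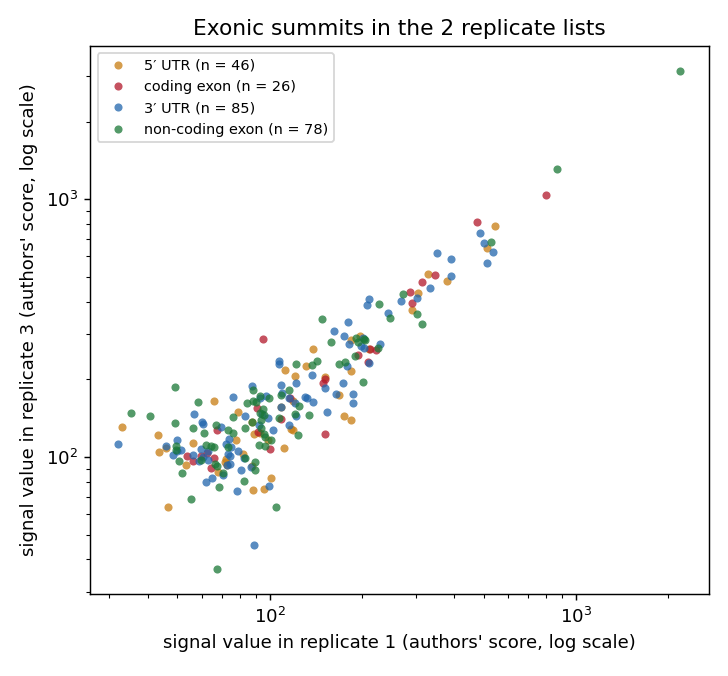
Signal value of each exonic peak in replicate 1 (x axis) and replicate 3 (y axis), both the authors' score on log axes, coloured by exon class; each point is 1 peak matched in both lists of 30000, 235 in all. The classes overlap along the whole range, and the highest point is the lncRNA:Vinr peak.

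Exonic peaks were neither at the top nor at the bottom of the list. The signal value, the authors' score for each peak, ranged from 146 to 5416 among exonic peaks with a median of 248.0, against 263 for all others. A signal value given without a replicate is that of the IDR-thresholded list. On a scale where 0 is the weakest and 100 the strongest peak of the list, the median percentile was 46.2 for exonic peaks and 50.1 for the others. By class it was 61.5 in coding exons, 51 in 3′ UTRs, 42.6 in exons of non-coding genes and 40.2 in 5′ UTRs, beside 46.1 in introns and 57.1 at coding promoters. Coding-exon peaks were few, but 3 of the 26 (11.5%) were among the 768 strongest peaks of the list, as were 14.7% of promoter peaks and 6.12% of intronic peaks.

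Below the IDR threshold the picture in coding exons was different. The pooled list holds 30000 regions by falling signal, and the IDR-thresholded list is its strongest 7689. Coding exons took 0.433% of the first 3000 summits (13) and 3.47% of the last 3000 (104), and all exon classes together took 2.67% of the first 3000 and 7.63% of the last. The share of 3′ UTRs was 1.00% of the first and 2.27% of the last 3000, while the ends were closer in 5′ UTRs (0.5% and 0.633%) and non-coding exons (0.733% and 1.27%). Between the ends the 5′ UTR share was higher, up to 1.43% at ranks 12001 to 15000. Among the 22311 regions below it, coding exons still held 21.0 summits per Mb, against 202 per Mb in introns. These weaker regions are a list of peaks and background regions per the labels, and their reproducibility was not tested here.

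**Figure D3:**
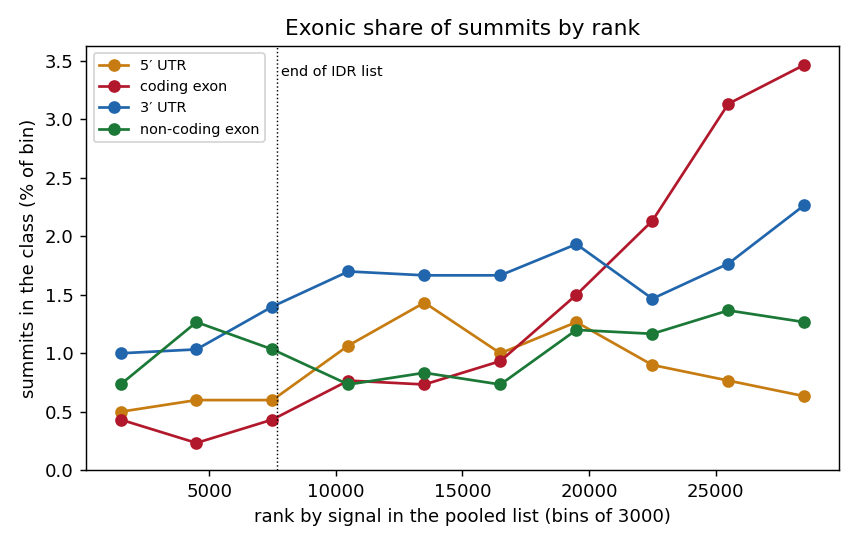
Share of summits in each exon class (y axis, percent of bin) along the pooled list in bins of 3000 by rank of signal (x axis); the dotted line is the end of the IDR-thresholded list. The coding-exon share is 0.433% in the first bin and 3.47% in the last.

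Coding-exon summits kept close to the edge of coding sequence. The median distance from a summit to the nearest coding edge was 63.5 bp, and 25 of the 26 were within 200 bp of one. The 26th, in CG34398, was 303 bp inside. Bases more than 200 bp inside made up 45.4% of the coding sequence away from TSSs, but held 3.85% of the coding-exon summits. The density was 0.12 per Mb there (exact Poisson 95% interval 0.00303 to 0.666), with 0.359 in replicate 1 alone and 0.239 in replicate 3 alone. It was 2.07 per Mb at 100 to 200 bp inside, 2.79 at 50 to 100 bp and 2.63 (1.26 to 4.84) in the outermost 50 bp.

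The low density continued a short way into introns. Within 50 bp outside coding sequence there was 1 intronic summit in 2.57 Mb (0.389 per Mb, 0.00984 to 2.17), although replicate 1 alone gave 2.72 and replicate 3 alone 1.55 per Mb. At 50 to 100 bp the density was 23.7 per Mb (15.7 to 34.2), at 100 to 200 bp 40.1, at 200 to 500 bp 60.6 and at 500 to 1000 bp 76.8 (69.3 to 85.0). Beyond 1000 bp it was lower again, at 58.0 per Mb (55.6 to 60.5). Short introns fill much of the first bins. In stretches of at least 1000 bp without coding sequence, the first 50 bp held 0 summits in 0.441 Mb, which allows up to 8.36 per Mb, and 50 to 100 bp held 36.0 per Mb (20.9 to 57.6). Of the 2926 intronic peaks, 88 (3.01%) reached into a coding exon at all.

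**Figure D4:**
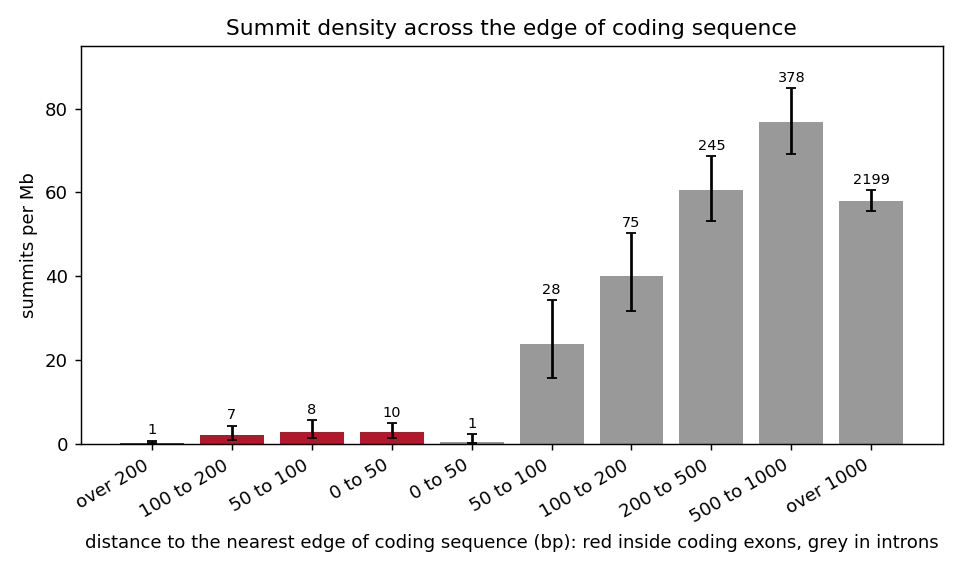
Summits per Mb (y axis) by distance from the nearest edge of coding sequence (x axis, bp), inside coding exons in red and in introns in grey, all more than 500 bp from every TSS; bars have exact Poisson 95% intervals and the number above each is its count of summits. Density is 2.79 per Mb or less inside coding exons and 58.0 or more from 200 bp outside, with the highest value, 76.8, at 500 to 1000 bp.

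The strongest coding-exon summits were in genes of varied function. In otp, which encodes a homeodomain transcription factor, the signal value was 798 in replicate 1 and 1037 in replicate 3, with 1837 and rank 170 in the IDR-thresholded list. The peak spanned 2R from 20884406 to 20884802, in an exon of 1137 bp shared by all 9 transcripts that cover it. Pde1c, which encodes a cyclic nucleotide phosphodiesterase, had 475 in replicate 1 and 813 in replicate 3 (rank 337). CG9663 had 348 and 511, l(3)mbn 316 and 477, mthl15, a Methuselah-like receptor gene, 288 and 436, and CG7675 292 and 394. All of these were among the strongest 7689 in both replicates.

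The next in rank were in Csgalnact, an enzyme gene of chondroitin synthesis, CG10357, klar, whose product acts in nuclear positioning and organelle transport, and CG34398. Further down were Mekk1, a MAP kinase kinase kinase gene (152 in replicate 1 and 123 in replicate 3), Nedd4, which encodes a ubiquitin ligase (109 and 140), and gce, a juvenile hormone receptor gene (59.8 and 100.7). The weakest, in raw, had 65.7 in replicate 1 and 98.9 in replicate 3. Each of the 26 summits was in a different gene. Ranks differed between the replicates for some hosts, among them CG4230, which had 95.1 in replicate 1 (rank 4623) and 288 in replicate 3 (rank 1631), and Mekk1, at rank 2596 in replicate 1 and 5299 in replicate 3. In 22 of the 26, every transcript of the host that spans the summit has it in an exon, and the peak interval lay wholly in exons in 4.

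In 5′ UTRs, most summits were exonic in some transcripts and intronic in others. This held for 26 of 46, against 4 of 26 in coding exons, 8 of 86 in 3′ UTRs and 4 of 78 in exons of non-coding genes. The host gene's own start was the nearest coding TSS for 43 of the 46, and 31 were within 1000 bp of a TSS. The strongest was in baz, which encodes the cell-polarity protein Bazooka (Par-3), with 544 in replicate 1 and 784 in replicate 3. A second summit in the same gene lay 1976 bp away. Raf, the kinase gene of the MAP kinase pathway, had 515 in replicate 1 and 646 in replicate 3, and Fbl6, an F-box protein gene, 379 and 482.

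SREBP, a transcription factor gene of lipid synthesis, had 328 in replicate 1 and 514 in replicate 3. Its summit lay 204 bp from a stronger one, and 39.3% of its peak interval was exonic, beside 41.8% at Raf. Of the 46 summits in 5′ UTRs, 6 were within 230 bp of a stronger summit. The muscle transcription factor gene Mef2 had 306 in replicate 1 and 434 in replicate 3, and the HMG-box repressor gene cic 293 and 372. The summits of SREBP, Mef2 and cic were each exonic in 1 spanning transcript, of 4, 3 and 2. The remaining hosts of the 10 strongest were dos, an adaptor of receptor tyrosine kinase signalling, COX7AL2, eas, an ethanolamine kinase gene, and Hsp22, a small heat shock protein gene. dos, ths (an FGF ligand gene), cbt (a zinc-finger gene), CAP and baz had 2 such summits each. The dos, ths and cbt pairs were 204, 217 and 208 bp apart, which is less than the width of 1 typical peak (460 bp).

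The 3′ UTR summits were spread over 84 host genes. APC7, a subunit of the anaphase-promoting complex, had 485 in replicate 1 and 742 in replicate 3, by, the tensin gene, 501 and 677, and fok 537 and 624. CG13560 had 515 and 564, CG7872 391 and 589, stas 351 and 620, and the small GTPase gene Rab35 391 and 503. sv, the fly Pax2 gene, shared its summit with the overlapping gene Cals and had 335 in replicate 1 and 454 in replicate 3. All of these were in the strongest 7689 of both replicates, as were corto and CG9003, which complete the 10 strongest. corto, whose product is a chromatin protein, was the host with 3 summits in its 3′ UTR, with signal values of 716, 232 and 154. The closest of these were 202 bp apart, less than the width of 1 typical peak (460 bp). The gene eas had 1 in its 3′ UTR besides the 5′ UTR one.

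Long 3′ UTRs of nervous system genes were among the hosts. pros had its summit in an exon of 15710 bp, elav, an RNA-binding protein gene and standard marker of neurons, in one of 10008 bp, NetB, an axon guidance gene, in one of 5366 bp, and fne, an elav relative, in one of 5252 bp. The NetB peak had 109 in replicate 1 and 156 in replicate 3, elav 76.2 and 170.3, and fne 60.1 and 136. The fne peak was below the strongest 7689 in replicate 1. Over all 3′ UTR summits the exon length had a median of 1962 bp, and 28 of 86 (32.6%, Wilson 95% interval 23.6 to 43.0) were within 100 bp of an annotated transcript end, beside 25.4% of the 3′ UTR sequence that could hold them. The interval includes that share. For exons of non-coding genes, 21 of 78 summits (26.9%, 18.3 to 37.7) were that close to an end, against 13.6% of their sequence.

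Exons of non-coding genes held the single strongest exonic peak. lncRNA:Vinr, a gene with 1 exon on the X chromosome from 12749894 to 12752350, had a summit at 12751331 with 2196 in replicate 1 and 3151 in replicate 3, and ranks of 15 and 14 in these lists. It lay 536 bp from the nearest TSS, just outside the limit. The neighbouring lncRNA:CR44619 had a summit of 1211 (530 in replicate 1, 685 in replicate 3), and a further, stronger summit in its exon, of 2618, was 498 bp from a TSS and so not counted. lncRNA:CR46035 came second, with 865 in replicate 1 and 1314 in replicate 3. It lies in an intron of osa, a subunit gene of the Brahma chromatin remodelling complex.

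Reading these as exonic depends on the non-coding gene being counted. Of the 78 summits, 18 lay inside an intron of another gene, among them those in lncRNA:CR44331 within puc, a phosphatase gene of the JNK pathway, in lncRNA:CR45048 within RhoGAP92B and in lncRNA:CR44034 within InR, the insulin receptor gene. The other hosts of the 10 strongest were lncRNA:CR44365, lncRNA:CR44603, lncRNA:CR44628 and lncRNA:CR43334. In 50 of the 78 the exon was the whole transcript, and the median exon length was 2015 bp.

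Non-coding genes with several summits included precursors of microRNAs. lncRNA:CR43334 on 3L from 628435 to 643900, which contains the hairpin of the growth-promoting microRNA bantam (mir-ban), had 8 summits over 13373 bp, with signal values from 160 to 496. The 2 highest had 203 and 192 in replicate 1, and 286 and 290.0 in replicate 3. lncRNA:CR43459, with mir-277 and mir-34, had 3 summits (164.5 to 433), lncRNA:CR46006, with mir-276a, had 3 (146 to 247), lncRNA:CR45911, with mir-2c, mir-13a and mir-13b-1, had 2 (387 and 440.1), and lncRNA:CR43650, with mir-8, had 2 (168 and 270.3). lncRNA:Hsromega, lncRNA:CR31044 and lncRNA:CR45345, with mir-4951, with mir-279 and mir-996, and with mir-375, had 1 each. In all, 21 of the 78 summits were in exons of 8 of the 37 annotated non-coding genes that contain a microRNA hairpin. That is 197 per Mb (exact Poisson 95% interval 122 to 301), against 59.4 per Mb (45.0 to 76.9) in other non-coding exons, with 160 and 55.2 in replicate 1 and 150.2 and 59.4 in replicate 3. The grouping by microRNA content was made after the values were seen, and 8 of the 21 summits come from 1 gene. In lncRNA:CR43334, lncRNA:CR43459, lncRNA:CR46006 and lncRNA:CR45911 the closest summits were less than the width of 1 typical peak (460 bp) apart. The density of 197 per Mb and its interval count each of them as a separate summit.

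Other non-coding hosts with several summits were lncRNA:CR44603 (3, from 419 to 623), asRNA:CR45270, lncRNA:CR43126, lncRNA:CR43928 and lncRNA:CR45531 (2 each). The lncRNA:CR43928 pair was less than the width of 1 typical peak (460 bp) apart. asRNA:CR45270 is named as antisense, and ChIP-seq does not tell strands apart. Altogether 17 host genes had 2 or more exonic summits, and these held 44 of the 236.

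Away from coding sequence the summits were rich in A and T, and in coding exons they were not. GC content within 50 bp of the summit was 53.5% ± 8.25 in coding exons (SD over 26 summits), against 33.5% ± 8.57 in introns (2926 summits). Coding exons are rich in GC in general, with a mean of 52.7% over all windows of the class, against 39.98% over all intron windows. Compared with windows 500 bp to either side, GC at the summit was higher in 22 of 26 coding exons, with 53.5% at the summit and 41.2% in the flanks. These exons had a median length of 485 bp, so many of the flanking windows lie outside the exon of the summit. In introns it was higher in 21.5% of peaks, with 33.5% at the summit and 42.0% in the flanks.

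Exons of non-coding genes followed the intron pattern, with 33.9% ± 8.51 at the summit (SD over 78 summits), 43.8% in the flanks and 41.9% over all windows of the class. In 3′ UTRs the summit value of 37.1% ± 8.26 (86 summits) was below the flanks at 41.0% and close to the mean of all 3′ UTR windows, 35.4%. In 5′ UTRs it was 40.6% ± 10.8 (46 summits), with 43.0% in the flanks and 45.3% over the class. The nearest edge of the exon was a median of 387.5 bp from the summit in 3′ UTRs and 403.5 bp in 5′ UTRs. Many of the windows at 500 bp therefore lie outside the exon of the summit here too. Relative to their own class, mean GC at summits was lower in exons of non-coding genes, in introns and in 5′ UTRs. It was near the class mean in coding exons and 3′ UTRs. Each of the lower means was within 1 SD, which is the spread of single summits and not the error of a mean. In 51 bp windows at the summit, the standard error was 1.13 in exons of non-coding genes, 0.187 in introns and 1.79 in 5′ UTRs.

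**Figure D5:**
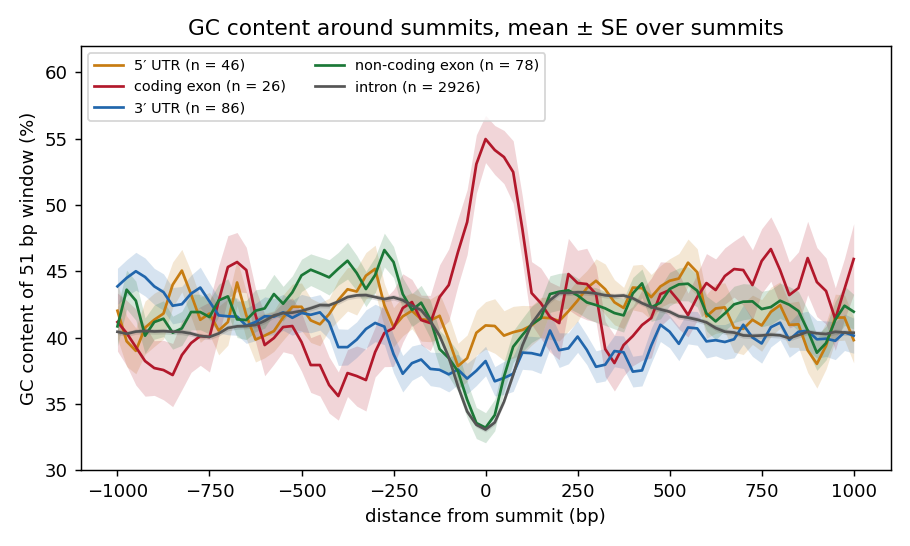
Mean GC content of 51 bp windows (y axis, percent) by distance from the summit (x axis, bp) for the 4 exon classes and introns; shading is the standard error over summits. Introns and exons of non-coding genes dip to near 33% at the summit, and coding exons rise above 50%.

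The word GTGACGAA or GTAACGAA was more frequent at coding-exon and 3′ UTR summits than at summits outside exons. It was within 50 bp of 6 of 26 (23.1%, Wilson 95% interval 11.03 to 42.1), of 10 of 86 in 3′ UTRs (11.6%, 6.44 to 20.1), of 2 of 78 in exons of non-coding genes and of 0 of 46 in 5′ UTRs. Among the 7453 other summits it was at 186 (2.50%, 2.17 to 2.88). The difference from these was 20.6 percentage points in coding exons (Newcombe 95% interval 8.53 to 39.6) and 9.13 in 3′ UTRs (3.93 to 17.6). None of the 472 windows 500 bp from an exonic summit held the word. Over all windows of the class the share was 0.349% in coding exons and 0.519% in 3′ UTRs. Because the word was picked from these same data for its frequency at the strongest peaks, a higher share at summits than in flanks or class windows was built into the choice. The differences from summits outside exons are a description of the same list, and their intervals test nothing. A match is a run of letters, and binding of Meics to it was not tested.

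The word was picked for its frequency at the strongest peaks, so that the signal of the peaks that hold it is a description and supports nothing. The 18 exonic peaks with it had a median signal value of 484, against 242 for the 218 without, and 16 of the 18 were in the strongest 7689 of both replicates. The highest-ranked of them, in fok, was at rank 415. By class the median percentile was 75.4 with and 54.0 without the word in coding exons, 85.3 with and 48.5 without in 3′ UTRs, and 21.1 with and 43.2 without in exons of non-coding genes, where 2 peaks held it. The coding-exon hosts with it were CG9663, mthl15, CG7675, CG10936, which holds both spellings, CG12560 and gce. The 3′ UTR hosts were fok, CG13560, Rab35, corto, CG9003, CG14204, CG9853, Damm and Strica, both caspase genes, and Galphao, a G protein subunit gene. The centre of the word lay a median of 14.5 bp from the summit over the 18 peaks, within 25 bp in 16 of them and at most 33 bp away.

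A pair of promoter motifs was not found at exonic summits, and both were also scarce at other summits away from promoters. TATCGATA, a site for DREF and BEAF-32, and GGTCACACT, the M1BP motif, were in 0 of 236 windows each, which allows up to 1.60%, against 0.239% and 0.137% of intronic and 0.392% and 0.294% of intergenic summits. Coding promoters held them at 3.02% and 1.36%. TATAAA, the TATA box, was at 15.3% (11.2 to 20.4) of exonic summits, against 22.3% (21.4 to 23.2) of the others. All exonic windows held it at 7.15%, but most of these are in coding exons, at 2.68%, which had few of the summits. By class, it was at 0 of 26 coding-exon summits and at 14.0% of 3′ UTR summits, beside 19.8% of all 3′ UTR windows. In 5′ UTRs it was at 13.0%, beside 8.59% of all windows, and in exons of non-coding genes at 23.1%, beside 12.5%. Windows 500 bp from the exonic summits held it at 12.1%. The word holds only A and T, and the part of the base composition given above in these shares was not tested. AATAAA, the hexamer of polyadenylation signals, was at 33.7% (24.6 to 44.2) of 3′ UTR summits, beside 27.5% of all 3′ UTR windows, and at 29.9% of summits outside exons.

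Many coding hosts also had a peak at a promoter. Taking 1 host per summit gave 150 protein-coding genes, of which 72 (48.0%, Wilson 95% interval 40.2 to 55.9) had another summit within 500 bp of one of their TSSs, against 26.1% of all 13945 coding genes. Genes differ in length and in number of TSSs, and the exonic hosts were not matched for either.

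Of the genes in the 12 lists of pathways and families, 10 had an exonic summit of this kind, and the highest share of a list was 11.4%, for nervous system genes. Over all 13945 coding genes the share with such a summit was 1.1%, and single genes in a list move its share by much. In the nervous system list 4 of 35 genes had one (elav, fne, NetB and pros), in the muscle and mesoderm list 2 of 22 (Mef2 and rst, an adhesion gene), among BTB and zinc-finger transcription factors 2 of 26 (cbt and jing), in the ecdysone response 1 of 12 (Hr4, a nuclear receptor gene) and in embryonic patterning 1 of 22 (tsl, a gene of terminal patterning). No gene had one in the lists of Hox genes (0 of 8), chromatin and chromosome proteins (0 of 34) and the Notch pathway (0 of 19). The same held for the lists of Wnt, Dpp, EGFR and Hedgehog signalling (0 of 35) and cytosolic ribosomal proteins (0 of 59). It also held for actin, tubulin and cytoskeleton (0 of 23) and central spindle and cytokinesis (0 of 21). The lists do not cover whole families, and the exonic hosts Raf, dos and corto are outside them. In lists this short, a count of 0 cannot be told apart from the share over all coding genes. Hr4 had 175 in replicate 1 and 294 in replicate 3, rst 64.7 and 83.1, jing 56.1 and 96.3, and tsl 82.0 and 103. rst and jing were each missing from the strongest 7689 of at least 1 replicate.

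The 500 bp limit ran through a dense zone. Within 500 bp of a TSS there were 860 further summits in exons, and 92 of the 236 lay between 500 and 1000 bp. The 3 just inside the rule were in cbt and lncRNA:CR44828, both at 501 bp, with 149 and 155, and in Fbl6 at 503 bp, with 874. The 3 just outside were in l(1)G0196 at 500 bp, with 177, lncRNA:CR44619 at 498 bp, with 2618, and lncRNA:CR44868 at 491 bp, with 461. By chromosome arm, the exonic summits were 38 on 2L, 46 on 2R, 45 on 3L, 52 on 3R, 1 on the fourth and 54 on X, where X held 22.9% of exonic and 18.5% of other summits.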

How the data were processed

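Chromatin from Meics-GFP embryos was sonicated to 200 to 800 bp, per the labels. The authors deposited peak lists on dm6 with a signal value (column 7), a −log10 q-value (column 9) and a summit offset per region. Which caller made them and at which IDR they were thresholded is not given in the sources used here. The −log10 q-value deposited by the authors was at its ceiling of 4.13 in 6671 peaks and was not used to rank. Lists on the dm3 build were not used here.

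Summits were classed on dm6 with the Ensembl annotation of BDGP release 6.54 (18164 genes on 6 arms, transposable elements left out). The first class that applied was taken: within 500 bp of a coding TSS, within 500 bp of a non-coding TSS, 5′ UTR, coding exon, 3′ UTR, non-coding exon, intron, intergenic. Positions count from 1. Sequence came from RefSeq. Motifs were searched on both strands within 50 bp of a summit. A peak was matched to the replicate region that overlaps it by at least 1 bp and has the nearest summit. With 1 group there is no test between groups, so counts have Wilson, exact Poisson or Newcombe 95% intervals. The strongest 7689 regions of the other replicate stood in for the list when a replicate was left out.

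The members, gene lists, motifs and naming rule were chosen with earlier results of these data known. Named genes were the 10 strongest hosts per class, those nearest the 500 bp limit, hosts with 2 or more exonic summits and list members. Other genes were named after their values were seen. Across the 12 lists, 10 symbols were not found. Alternatives were other TSS distances and sets, class orders, stricter exon and overlap rules, stronger peaks, each replicate alone and other windows. Depth is unknown, so no interval rests on reads. Code was tested on simulated positions and words. The work was done in Python 3.11.15 with pandas 2.3.3, numpy 2.4.6 and scipy 1.17.1, and figures with matplotlib 3.10.9.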

Additional observations from a re-analysis of the deposited data

How the results depend on the processing

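The exonic count of 236 moved between 109 and 381 over 15 alternatives and stayed within 1.5 times in 12 of them. With a TSS distance of 200 bp the counts were 381 exonic, 113 in 5′ UTRs and 126 in exons of non-coding genes. With 1000 bp they were 144 exonic, 15 in 5′ UTRs, 13 in coding exons and 45 in exons of non-coding genes. Counting TSSs of coding genes alone gave 139 in exons of non-coding genes. Asking that every spanning transcript of the host be exonic left 20 in 5′ UTRs. The 3844 strongest peaks, fewer by construction, had 109 exonic, 19 in 5′ UTRs, 15 in coding exons, 45 in 3′ UTRs and 30 in exons of non-coding genes. The other counts stayed within 1.5 times, also under 2 alternatives chosen after seeing the data, with transposable elements counted as non-coding genes (235 exonic) and without TSSs of non-coding genes under 200 bp (244). The match in both replicates was 63.6% when at least 0.5 of each region had to overlap and 74.6% when the replicate summit had to be within 100 bp.

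The density below introns was also recomputed after seeing the data, and its direction held for each class in the settings run. For coding exons it was 52.7-fold at 1000 bp and 31.1-fold in the 3844 strongest peaks, for 3′ UTRs 3.40 and 3.34. For 5′ UTRs (1.26-fold) it was 1.12 at 200 bp, 1.94 at 1000 bp, 1.39 in the 3844 strongest peaks, 1.35 without summits near a stronger one, and 1.17 to 1.18 with 1 replicate left out. For exons of non-coding genes (0.757-fold) it was 0.825, 0.67 and 0.902 in the first 3 of these settings, 0.844 with coding TSSs alone, and 0.785 to 0.848 with 1 replicate left out.

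GC content at exonic summits was 36.9% in the 3844 strongest peaks. At coding-exon summits it was 55.0% within 25 bp, 51.3% within 100 bp of the summit and 52.3% to 52.4% with 1 replicate left out, and at 3′ UTR summits 35.7% to 37.3%. Within 100 bp, shares at exonic summits were 0.424% for TATCGATA, 21.2% for CGATA, 25.8% for TATAAA, 4.66% for GTAACGAA, 5.51% for GAGAGAG and for CACACACA, 1.69% for CACGTG, 7.20% for CACATG, 0.847% for CAGGTAG, 13.1% for AAAAAAAA and 46.2% for AATAAA. GTGACGAA or GTAACGAA was at 26.9% of coding-exon and 12.8% of 3′ UTR summits within 100 bp, at 33.3% and 17.8% in the 3844 strongest peaks, and at 10.6% to 10.8% of 3′ UTR summits with 1 replicate left out. The window within 100 bp contains the one within 50 bp, so motif shares there can only be equal or higher. Within 50 bp, exonic summits held CGATA at 13.1%, GAGAGAG and CACACACA at 2.12% each, and AAAAAAAA at 5.08%. The shares there were 0.847% for CACGTG, 3.39% for CACATG and 0.424% for CAGGTAG. The cause of the other shifts was not tested. No paired analysis was possible because there was 1 group. Class sizes include sequence where reads cannot be placed, and read depth is not known.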
